A study of Homo sapiens with 32 samples.

Results

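CYR61, CTGF, AMOTL2, ANKRD1, LATS2, SRF, VCL, ACTB, ACTG1 and TPM1 are 10 genes that are commonly used as targets of the transcription coactivator YAP or of the serum response factor SRF, together with the 2 cytoplasmic actin genes. They were taken from the count table by their symbols, as 10 of 32738 gene entries, and all 10 were among the 10439 genes with enough counts to be tested. Their counts were followed in HEK293 cells, an established line from human embryonic kidney, over 0, 5, 15 or 30 min with 4-thiouracil, a base analogue that cells can build into newly made RNA. Every time had 2 cultures, each read as 2 cDNA preparations with 2 libraries apiece, and every group was of the same line. The labels name polyadenylated RNA. The library titles begin with TTSeq. Whether 4-thiouracil-bearing RNA was purified before counting, and what the 0 min cells were given, is stated neither there nor in the other labels. A rise or fall is here a difference in the RNA counted, which need not be one in expression. Values are therefore shares of the RNA that was counted, and in such bulk samples fewer cells with a transcript and less transcript per cell cannot be told apart. As the labels do not say how far apart the cultures were kept, p-values measure the spread between these 2 cultures per time and no more.

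YAP and its relative TAZ are held in the cytoplasm by the Hippo kinases, and when released they enter the nucleus and act through TEAD proteins, which bind DNA. CYR61, CTGF and ANKRD1 are the readouts most often used for this activity, and AMOTL2 and LATS2 encode inhibitors of YAP that are themselves YAP targets, which closes a feedback loop. SRF binds a sequence called the CArG box with 1 of 2 kinds of partner: the MRTF proteins (genes MKL1 and MKL2), which are kept inactive by free actin monomers, or the ternary complex factors of the ELK family, which respond to growth factor signalling. Genes of the actin cytoskeleton, SRF itself and several rapidly induced transcription factors are known SRF targets, and CYR61, CTGF and VCL have been tied to both factors.

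RefSeq promoter sequences (build GRCh38.p14) were matched for 8 of the 10 genes, and CYR61 and ACTB were not matched. The 250 bases before each start were searched on both strands for the CArG box and for GGAATG, the core commonly bound by TEAD proteins; the motifs do not overlap in the windows shown. Stretches that hold a match are printed here, although the 10 genes were taken by symbol and not by these matches. They run 5′ to 3′ on the gene's own strand, and capitals mark the matched motif, with CATTCC being GGAATG on the other strand. Each span starts and ends 15 bases outside its outer motifs, except at SRF, where it stops at the last base before the start.
CTGF, chr6:131951447-131951556, minus strand: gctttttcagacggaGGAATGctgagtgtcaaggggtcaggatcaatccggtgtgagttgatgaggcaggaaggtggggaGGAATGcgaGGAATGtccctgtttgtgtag
ANKRD1, chr10:90921195-90921322, minus strand: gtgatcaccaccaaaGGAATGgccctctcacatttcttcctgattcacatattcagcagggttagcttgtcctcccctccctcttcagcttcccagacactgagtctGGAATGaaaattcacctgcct
AMOTL2, the second of 2 listed starts, chr3:134374496-134374531, minus strand: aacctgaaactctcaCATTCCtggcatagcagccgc
VCL, chr10:73997930-73997965, plus strand: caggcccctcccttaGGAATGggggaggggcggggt
SRF, the first of 2 listed starts, chr6:43171224-43171268, plus strand: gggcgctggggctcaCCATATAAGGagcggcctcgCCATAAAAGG
ACTG1, chr17:81512869-81512908, minus strand: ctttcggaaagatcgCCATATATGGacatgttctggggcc

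The CTGF promoter held 3 copies of GGAATG, which begin 169, 104 and 95 bases before the start. Over 35116 promoters of the table, 11.9% held at least 1 copy in the same length, 0.94% at least 2, and 29 promoters (0.0826%) at least 3. ANKRD1 held 2 copies, 220 and 128 bases before its start, while the second AMOTL2 start and VCL held 1 each. The SRF promoter held 2 CArG boxes, 30 and 10 bases before the start, which 0.0313% of promoters did, and ACTG1 held 1, as did 1.16% of promoters in all. The windows of LATS2, TPM1, the first AMOTL2 start and the second SRF start held neither motif, which says only that these letters are not in those windows. A match describes the sequence and shows no binding, and no count in these data comes from a promoter.

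Over the 8 cultures the 10 genes did not all follow the same course. CYR61 and CTGF, and later SRF, went from a few counts to their highest levels at 30 min. ACTB and ACTG1 stood far lower at 5 min than at 0 min and higher again at 30 min than at 5 min, while VCL was already above its 0 min level at 5 min. AMOTL2 and ANKRD1 were highest at 30 min with changes of a few fold at most, and for LATS2 and TPM1 none of the 6 comparisons passed the test. The panels of levels in each culture and cDNA preparation show these courses gene by gene.

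Libraries held 188686 to 381471 counts, and the 8 cultures 776871 to 1396056. Counts of libraries from the same cDNA differed by less than sampling noise in 16 of 16 pairs, with a chi-square of 0.327 to 0.594 for each degree of freedom, and those of different cDNA of a culture by more than it in 32 of 32 pairs (1.14 to 2.29). A culture, as the unit the labels call a biological replicate, was summed over its libraries and taken as 1 sample. Together the 10 genes made up 0.511% and 0.451% of all counts in the 0 min cultures and 0.178% and 0.169% in those of 5 min, then 0.249% and 0.295% at 15 min and 0.729% and 0.632% at 30 min, most of it from ACTB and ACTG1. Of 8 genes taken as marks of HEK293 cells 7 were in the table and all 7 had counts. Their summed level was 355 to 469 CPM of the total at 0 min, 681 to 726 at 5 min, 560 to 666 at 15 min and 600 to 676 at 30 min. VIM and CDH2 held 2814 and 2684 counts over all libraries, where PAX2 had 5, LHX1 41, NEFM 55, KRT18 74 and KRT8 104. Members of the list also moved in opposite directions. Of 5 tested at 5 min against 0 min, CDH2 rose (103 ± 23.0 to 383 ± 9.42 TMM-scaled CPM), while VIM (462 ± 47.6 to 233 ± 32.6) and KRT8 (28.6 ± 4.94 to 9.93 ± 4.14) fell. Of 7 fibroblast markers COL1A2, DCN and PDGFRB were at 0 in every culture and 4 had counts, with 16 for COL1A1, more than PAX2 had. The fibroblast sum was at most 6.45 CPM. At 0 were 4 of 6 leukocyte and red cell markers (PTPRC, CD3E, LYZ and, for red cells, HBB) and 2 of 3 endothelial markers (CDH5 and VWF). Their sums were at most 4.45 and 1.49 CPM.

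Levels are given as TMM-scaled CPM, counts set relative to library size and to a factor that puts the bulk of genes on 1 footing, and tests are edgeR's quasi-likelihood F test with Benjamini-Hochberg adjustment over all 10439 genes at 0.05. The TMM factors were 0.686 and 0.639 in the 0 min cultures and 1.10 to 1.22 in the later ones, so the choice of scaling bears on every comparison with 0 min. Without the factors, by total counts alone, the median log2 fold change of all genes against 0 min went from 0.10 to 0.83 at 5 min, from 0.19 to 0.95 at 15 min and from 0.35 to 1.22 at 30 min. A change of scaling shifts all genes by nearly the same amount. Set against that median, a gene's change is therefore nearly the same by either scaling, so ACTB at 30 min against 0 min was -0.88 relative to it with both. All comparisons with 0 min share the 0 min cultures.

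**Figure D1:**
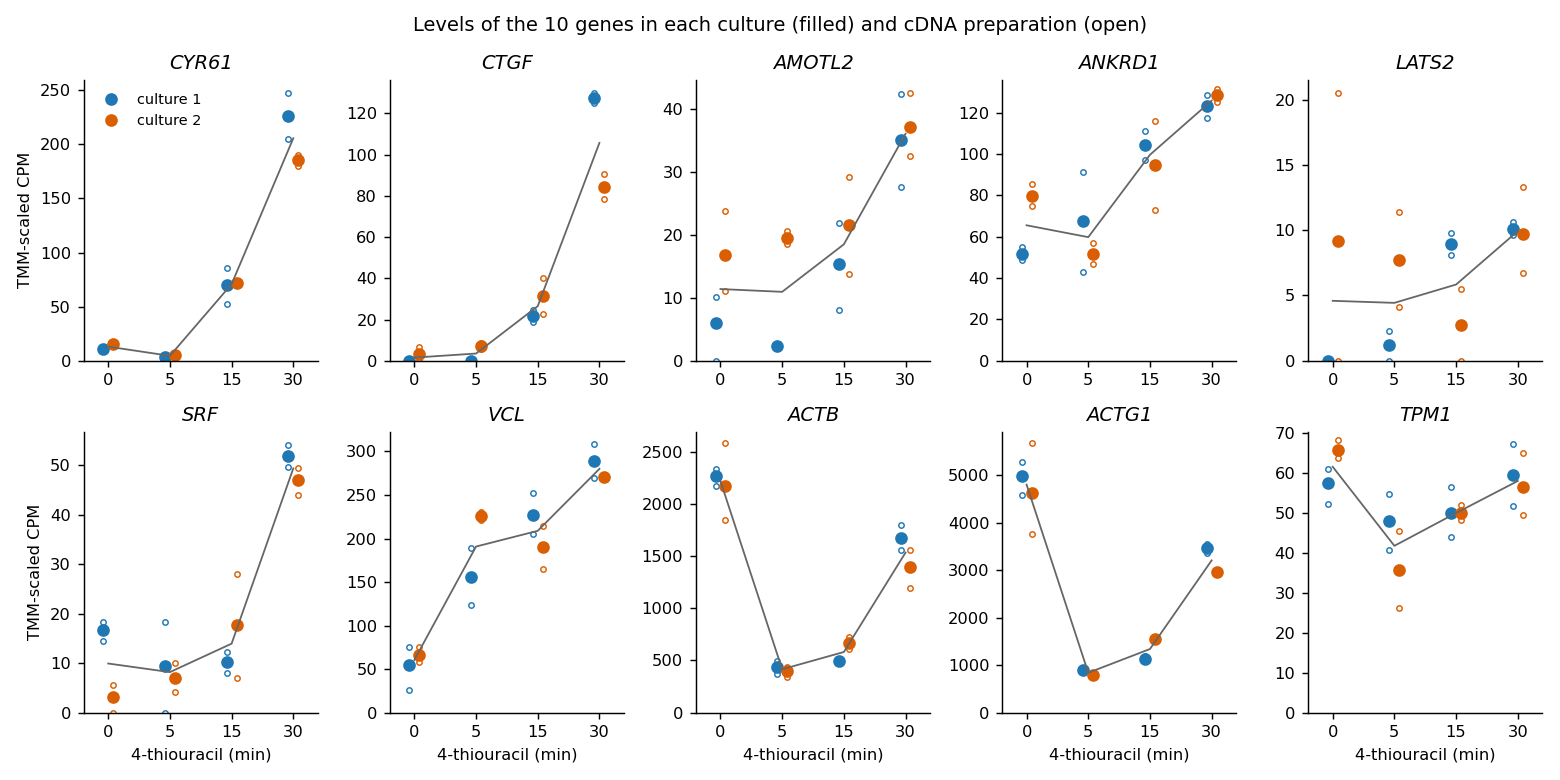
Level of each of the 10 genes (y axis, TMM-scaled CPM, a separate scale per gene) against minutes with 4-thiouracil (x axis, times evenly spaced). Filled points are the 2 cultures of a time, open points their cDNA preparations, and the line joins the means; CYR61 rose from 4.55 at 5 min to 206 at 30 min, while ACTB went from 2217 at 0 min to 415 at 5 min and 1533 at 30 min.

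CYR61 and CTGF encode secreted matricellular proteins of the CCN family, which bind integrins and the matrix around cells. CYR61 was at 10.8 and 15.3 TMM-scaled CPM in the 2 cultures at 0 min, 3.51 and 5.60 at 5 min, 69.8 and 71.8 at 15 min, and 226 and 185 at 30 min. No culture of a time overlapped with those of another, and the order of the times was 5, 0, 15 and 30 min. The counts behind the lowest values were 3 and 8 at 5 min and 9 and 10 at 0 min.

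From 5 to 15 min CYR61 rose by 3.86 on the log2 scale (SE 0.372, adjusted p = 8.3e-09), 14.5-fold and the 18th largest increase of the 10439 genes. From 15 to 30 min it rose by a further 1.54 (SE 0.221, adjusted p = 3.42e-05), a 2.90-fold step. Over the whole interval from 5 to 30 min the increase was 42.1-fold (log2 5.40, SE 0.341, adjusted p = 5.68e-14), and no alternative brought it below 5.05 on the log2 scale. The gene was also above its 0 min level at 15 min (2.46, SE 0.341, adjusted p = 2.04e-07) and at 30 min (4.00, SE 0.314, adjusted p = 1.23e-12). At 5 min it fell against 0 min (-1.40, SE 0.542, adjusted p = 0.0283), a call that rests on 11 counts against 19. That call was lost by total counts (-0.68, adjusted p = 0.306), with no filter on low counts, with 1 library per cDNA, without culture 2 at 0 min and without either 5 min culture.

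CTGF was at 0 and 3.06 TMM-scaled CPM in the 0 min cultures, 0 and 7.00 at 5 min, 21.8 and 31.2 at 15 min, and 127 and 84.0 at 30 min. These are 0 and 2 counts at 0 min, 0 and 10 at 5 min, 34 and 46 at 15 min and 214 and 138 at 30 min. The cultures of 0 and 5 min overlapped, and both later times stood apart from them and from each other. No library of culture 1 at 0 min or of culture 1 at 5 min, which are separate cultures, held a count of the gene.

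From 15 to 30 min CTGF rose by 2.00 (SE 0.353, adjusted p = 0.000491), 3.99-fold, and from 5 to 15 min by 2.60 (SE 0.555, adjusted p = 0.00747). Against 5 min the 30 min level was 24.2-fold higher (4.60, SE 0.488, adjusted p = 1.56e-08), the 24th largest increase of all genes where CYR61 had the 20th. That size rests on 0 and 10 counts at 5 min: it was 3.89 on the log2 scale without culture 1 at 5 min, and 10.04 without culture 2, a fitted value against a culture with no count that depends on the prior count. With 2 counts at 0 min, the change since then is better given as a ratio of scaled counts: 19.6 at 15 min (95% counting interval 5.25 to 165) and 78.8 at 30 min (21.7 to 654), with adjusted p = 3.55e-05 and 8.22e-10 in the fit. The interval covers counting error only, and with reads that may be copies of a molecule it is too narrow. The call from 5 to 15 min was lost without culture 1 at 5 min, without culture 2 at 15 min and in DESeq2 (adjusted p = 0.107, 0.0987 and 0.323), and that from 15 to 30 min without culture 1 at 30 min and in DESeq2 (0.0646 and 0.393).

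Within a culture, CYR61 had 3.21 and 2.30 counts per count of CTGF at 15 min, and 1.78 and 2.20 at 30 min, so the cultures of the 2 times did not overlap but lay close to each other. The other 4 genes of the CCN family in the table (NOV, WISP1, WISP2 and WISP3) had 9, 0, 12 and 5 counts over all libraries and were not tested.

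AMOTL2 encodes an angiomotin protein that holds YAP outside the nucleus, and LATS2 a kinase that phosphorylates YAP. AMOTL2 was at 5.99 and 16.8 TMM-scaled CPM at 0 min, 2.34 and 19.6 at 5 min, 15.4 and 21.7 at 15 min, and 35.1 and 37.1 at 30 min. The cultures of the first 3 times overlapped, with the culture numbered 2 the higher at each time, and both 30 min cultures were above all of them. AMOTL2 rose by 1.71 at 30 min against 0 min (SE 0.559, adjusted p = 0.00942), 3.28-fold, and by 1.55 against 5 min (SE 0.503, adjusted p = 0.0374). Neither step alone passed the test, with 0.59 from 5 to 15 min (adjusted p = 0.686) and 0.96 from 15 to 30 min (adjusted p = 0.291). The call against 0 min was lost in DESeq2 (adjusted p = 0.0613) and without culture 1 at 0 min (1.12, 0.129), and that against 5 min in DESeq2 (0.12), without culture 1 at 5 min (0.87, 0.317) and without either 30 min culture (0.133 and 0.149). The sizes were larger without culture 2 at 0 min (2.60) and without culture 2 at 5 min (3.90).

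LATS2 had the fewest counts of the 10 genes, from 0 to 17 per culture. It was at 0 and 9.18 TMM-scaled CPM at 0 min, 1.17 and 7.70 at 5 min, 8.96 and 2.71 at 15 min, and 10.1 and 9.74 at 30 min. Cultures of the first 3 times overlapped and the 30 min cultures lay just above the highest of them. The 30 min level was 2.34-fold that of 0 min (log2 1.23, SE 0.988, adjusted p = 0.298) and 2.00-fold that of 5 min (1.00, SE 0.876, adjusted p = 0.514), and neither difference passed the test. Without culture 2 at 0 min, where the remaining culture had no count, the fit called LATS2 higher at 30 min (adjusted p = 0.022).

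ANKRD1 encodes an ankyrin repeat protein found in the nucleus and, in muscle, at the sarcomere. It was at 51.5 and 79.6 TMM-scaled CPM at 0 min, 67.8 and 51.8 at 5 min, 104 and 94.8 at 15 min, and 123 and 128 at 30 min. The 0 and 5 min cultures overlapped, those of 15 min were higher than both, and those of 30 min higher again.

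ANKRD1 rose by 1.10 from 5 to 30 min (SE 0.237, adjusted p = 0.00182), 2.14-fold, and by 0.96 from 0 to 30 min (SE 0.247, adjusted p = 0.00126). Neither step passed (0.76 with adjusted p = 0.11, then 0.34 with adjusted p = 0.487), although the first did in a fit without the 0 min cultures (0.80, adjusted p = 0.0368) and with 1 library per cDNA (0.97, 0.0273). At 15 min the rise over 0 min (0.62, SE 0.252, adjusted p = 0.0352) was lost with RLE size factors, in DESeq2, with 1 library per cDNA, without culture 1 at 0 min and without culture 1 at 15 min (adjusted p from 0.0751 to 0.326). The rise from 5 to 30 min was lost without culture 2 at 5 min (0.90, adjusted p = 0.0646). In counts within a culture, ANKRD1 went from 4.78 and 5.20 per count of CYR61 at 0 min and 19.3 and 9.25 at 5 min to 1.5 and 1.32 at 15 min and 0.545 and 0.694 at 30 min. The 2 genes thus changed unequally, although both are used as YAP readouts.

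SRF encodes the factor itself and is among its own known targets. It was at 16.8 and 3.06 TMM-scaled CPM at 0 min, 9.35 and 7.00 at 5 min, 10.2 and 17.6 at 15 min, and 51.8 and 46.9 at 30 min. The cultures of the first 3 times overlapped in part, from 2 to 26 counts each, and both 30 min cultures were more than 2 times above the highest of them, with 87 and 77 counts. SRF rose by 1.82 from 15 to 30 min (SE 0.428, adjusted p = 0.00746), 3.54-fold and the 98th largest step of all genes. Over 5 to 30 min it rose 6.13-fold (2.62, SE 0.487, adjusted p = 0.000356), and from 0 to 30 min 4.65-fold (2.22, SE 0.499, adjusted p = 0.000295). With 14 and 2 counts at 0 min, this last value was 3.99 without culture 1 at 0 min and 1.57 without culture 2, and passed in both. The step from 5 to 15 min did not pass (0.79, SE 0.544, adjusted p = 0.566), where CYR61 and CTGF did; whether the genes differ in this step was not tested. The call from 15 to 30 min was lost without culture 1 at 15 min (1.48, adjusted p = 0.142) and without either 30 min culture (adjusted p = 0.115 and 0.0638).

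VCL encodes vinculin, which ties integrin adhesions to actin filaments. It was at 55.1 and 65.8 TMM-scaled CPM at 0 min, 155 and 226 at 5 min, 227 and 190 at 15 min, and 289 and 271 at 30 min. The 0 min cultures were below all others, those of 5 and 15 min overlapped, and those of 30 min were the highest.

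VCL rose by 1.69 at 5 min against 0 min (SE 0.232, adjusted p = 1.55e-07), 3.22-fold, by 1.80 at 15 min (SE 0.228, adjusted p = 3.92e-08) and by 2.22 at 30 min (SE 0.225, adjusted p = 2.64e-10). The 5 min value ranged from 1.39 to 2.41 over the alternatives and passed in each. From 5 to 15 min the difference was 0.11 (SE 0.189, adjusted p = 0.86), and from 5 to 30 min 0.54 (SE 0.186, adjusted p = 0.0545). That last value passed in 8 of the alternatives, among them total counts (0.68, adjusted p = 0.014) and the fit without the 0 min cultures (0.60, adjusted p = 0.0238).

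ACTB and ACTG1 encode the 2 cytoplasmic actins. They are close copies of each other with many processed pseudogenes, and the sources used here do not say how reads that fit several copies were counted, so the split of counts between them is uncertain. ACTB was at 2264 and 2171 TMM-scaled CPM at 0 min, 436 and 394 at 5 min, 498 and 663 at 15 min, and 1674 and 1391 at 30 min. ACTG1 was at 4993 and 4619 at 0 min, 894 and 784 at 5 min, 1132 and 1548 at 15 min, and 3460 and 2957 at 30 min. For both genes the order was 5, 15, 30 and 0 min, with no overlap between cultures of different times.

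At 5 min ACTB fell against 0 min by 2.42 on the log2 scale (SE 0.198, adjusted p = 4.95e-12), 5.35-fold lower, and ACTG1 fell by 2.52 (SE 0.207, adjusted p = 5.18e-12), 5.73-fold lower. These were the 222nd and 176th largest decreases of the 10439 genes. From 15 to 30 min ACTB rose by 1.40 (SE 0.189, adjusted p = 2.38e-05) and ACTG1 by 1.26 (SE 0.197, adjusted p = 0.000115), and from 5 to 30 min by 1.89 (SE 0.194, adjusted p = 8.54e-09) and 1.94 (SE 0.203, adjusted p = 1.2e-08), 3.70- and 3.83-fold. From 5 to 15 min neither passed (0.49, adjusted p = 0.241, and 0.68, adjusted p = 0.0751), although ACTG1 did by total counts (0.71, adjusted p = 0.0117), with no filter on low counts (0.72, 0.00202), in DESeq2 (0.65, 0.0197) and without culture 1 at 15 min (0.89, 0.00247).

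The 30 min level of both actins was below that of 0 min with TMM, ACTB at -0.53 (SE 0.185, adjusted p = 0.0144) and ACTG1 at -0.58 (SE 0.194, adjusted p = 0.011), but above it by total counts (0.34, adjusted p = 0.0623, and 0.29, adjusted p = 0.112). Both calls were also lost without culture 1 at 0 min (adjusted p = 0.0829 and 0.086) and without culture 2 at 30 min (0.231 and 0.181). Relative to the median of all genes, ACTB was at -0.88 and ACTG1 at -0.93 by either scaling. Taking off the median removes the scaling by arithmetic, so this likeness does not say which direction against 0 min is right.

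ACTG1 had 2.21 and 2.13 counts per count of ACTB at 0 min, 2.05 and 1.99 at 5 min, 2.28 and 2.34 at 15 min, and 2.07 and 2.13 at 30 min. The ratio thus moved little while both levels changed by several fold. VCL, in contrast, had 0.0243 and 0.0303 counts per count of ACTB at 0 min, 0.357 and 0.574 at 5 min, 0.457 and 0.287 at 15 min, and 0.173 and 0.195 at 30 min. Such ratios within a culture need no scaling, and they show that the genes changed unequally, not which of them moved.

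**Figure D2:**
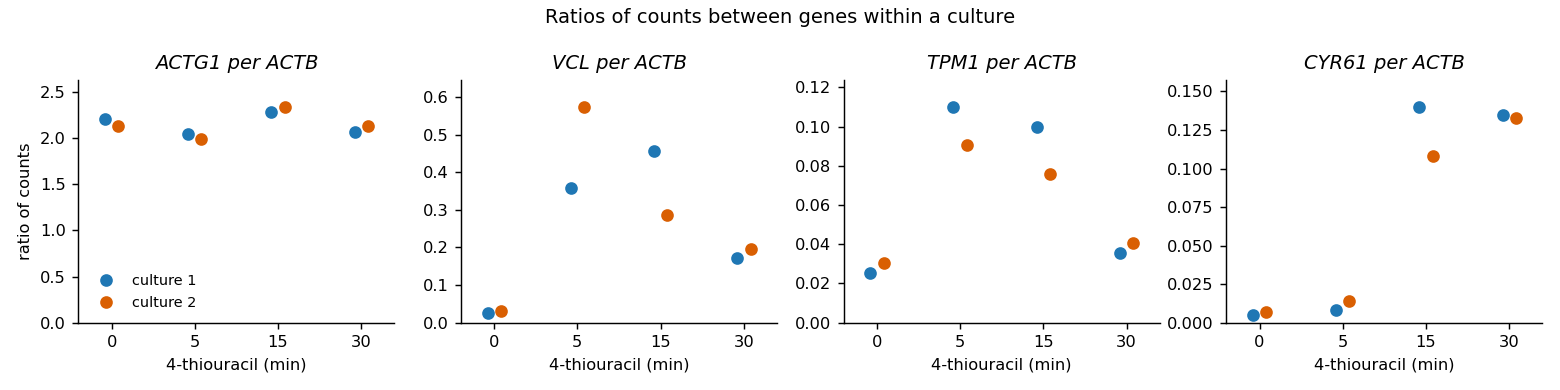
Ratio of counts between genes within a culture (y axis, from 0) against minutes with 4-thiouracil (x axis, times evenly spaced); each point is 1 of the 2 cultures. ACTG1 per ACTB stays between 1.99 and 2.34, whereas CYR61 per ACTB goes from 0.00476 and 0.00705 at 0 min to 0.135 and 0.133 at 30 min.

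TPM1 encodes a tropomyosin, which lies along actin filaments. It was at 57.5 and 65.8 TMM-scaled CPM at 0 min, 47.9 and 35.7 at 5 min, 49.9 and 50.1 at 15 min, and 59.5 and 56.6 at 30 min. All values lay within 2 times of each other and the 0 and 30 min cultures overlapped. The difference at 5 min was -0.58 (SE 0.297, adjusted p = 0.0988), and at 30 min -0.08 (SE 0.277, adjusted p = 0.824), turning to 0.79 by total counts (adjusted p = 0.015). Per count of ACTB, TPM1 went from 0.0254 and 0.0303 at 0 min to 0.110 and 0.0906 at 5 min and back to 0.0355 and 0.0407 at 30 min.

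Set against all genes, the count of called genes among the 10 has to be read with the share called anywhere in that comparison. At 5 min against 0 min VCL was higher, where 28.7% of all genes were, and CYR61, ACTB and ACTG1 were lower, where 26.0% were. At 15 min against 0 min CYR61, CTGF, ANKRD1 and VCL were higher against 29.8% of all genes, and ACTB and ACTG1 lower against 24.6%. At 30 min 6 of the 10 were higher than at 0 min, where 32.1% of all genes were, and 2 lower, where 23.8% were. By total counts 0 of the 10 were lower, where 12.9% of all genes were. With so many genes called on both sides, these counts say little about the 10 genes by themselves.

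Between the times with 4-thiouracil far fewer genes were called. From 5 to 15 min CYR61 and CTGF were higher, where 1.03% of all genes were, and none of the 10 was lower, where 0.517% were. From 15 to 30 min CYR61, CTGF, SRF, ACTB and ACTG1 were higher against 2.26% of all genes, and 0 of the 10 lower against 2.78%. From 5 to 30 min 7 of the 10 were higher against 5.88%, and 0 were lower against 6.52%, while VCL, LATS2 and TPM1 did not pass. The 0 counts for lower genes also hold by edgeR at an unadjusted p under 0.05 and in DESeq2. The median log2 fold change of the 10 was 0.63, 1.11 and 1.72 in these 3 comparisons, where the median of all genes was 0.00, -0.01 and -0.03. The 10 genes and the gene lists below were chosen with earlier results of these data known. Their contrast with all genes is therefore a description and no test.

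**Figure D3:**
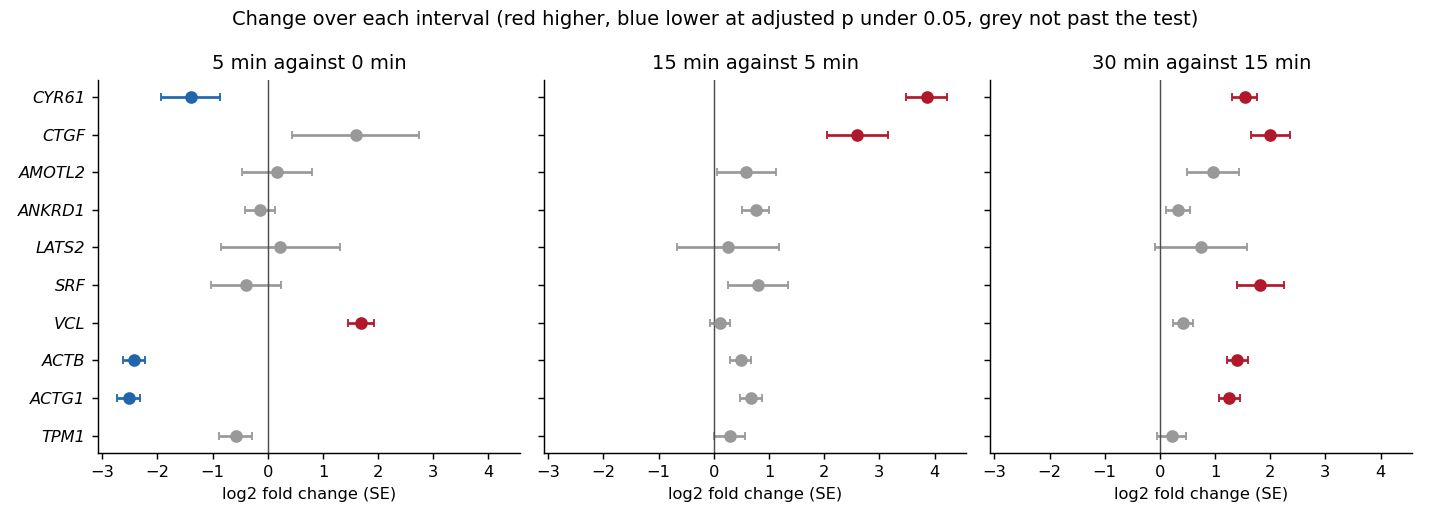
Log2 fold change of each gene (x axis, point with its SE as a bar) over each interval, with the genes on the y axis; red is higher and blue lower at an adjusted p under 0.05, and grey did not pass. VCL is the gene called higher and CYR61, ACTB and ACTG1 the genes called lower from 0 to 5 min, with 2 called higher from 5 to 15 min and 5 from 15 to 30 min.

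**Figure D4:**
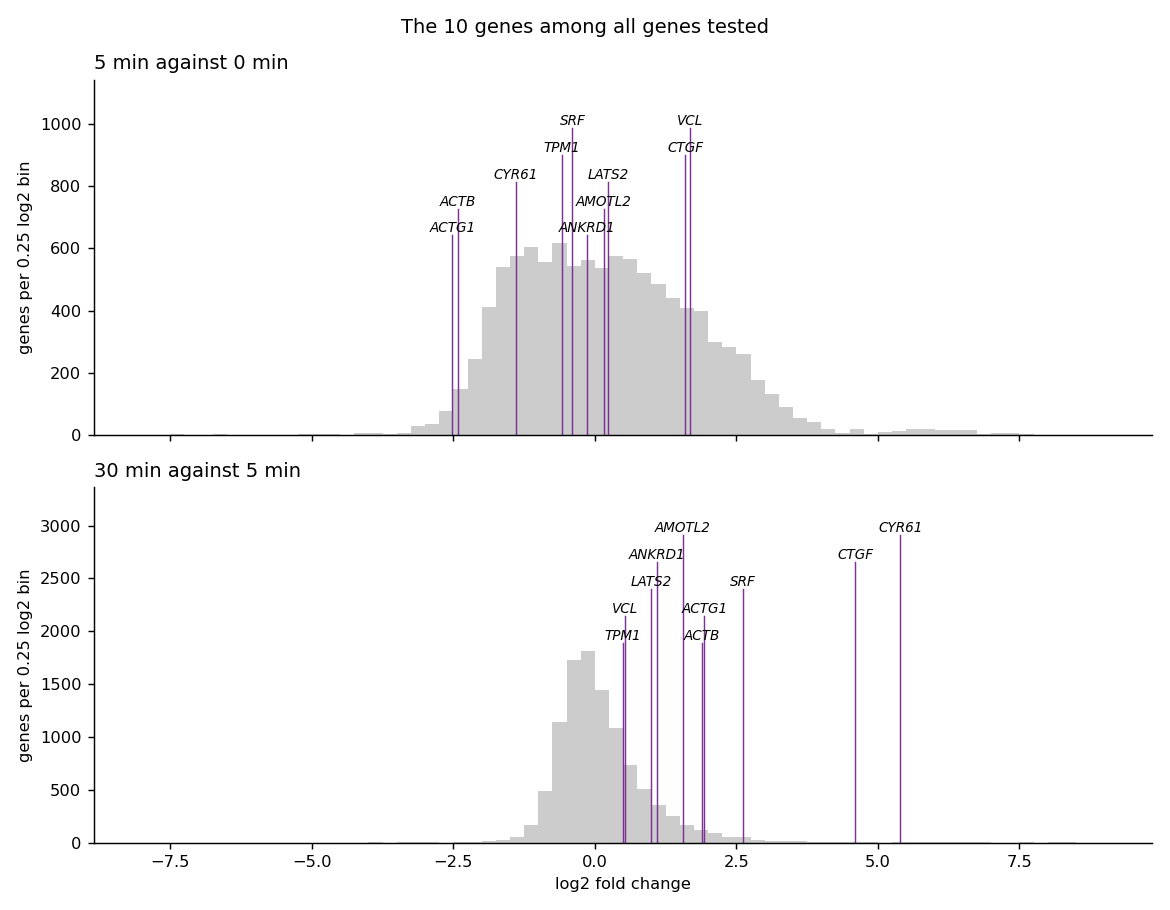
Number of genes per bin of log2 fold change (grey, y axis; x axis log2 fold change) for 5 min against 0 min and for 30 min against 5 min, over the 10439 genes tested, with a line for each of the 10 genes (line height carries no value). From 0 to 5 min the 10 genes lie on both sides of 0, from ACTG1 at -2.52 to VCL at 1.69, and from 5 to 30 min all lie above 0, from TPM1 at 0.50 to CYR61 at 5.40.

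The genes differ in the length of DNA they span from first to last exon, and over all genes this length went along with the change from 0 min. Of the 10439 genes 9351 (89.6%) had a span in GENCODE release 29. Cut into 5 groups of like size by span, their median log2 fold change at 5 min against 0 min was -1.14, -0.65, -0.04, 0.64 and 1.64 from the shortest to the longest. VCL spans 122 kb, in the group of the longest genes, and its 1.69 is close to that median. LATS2 (88.5 kb) is in the group next to the longest, and TPM1 (23.3 kb) and AMOTL2 (18.7 kb) are in that next to the shortest. The other genes are in the shortest group, with SRF at 10.2 kb, ANKRD1 at 9.18 kb, ACTB at 3.56 kb, CYR61 and CTGF at 3.20 kb and ACTG1 at 2.79 kb. ACTB and ACTG1 at -2.42 and -2.52 were below the median of that group and CYR61 at -1.40 was near it. SRF at -0.40, ANKRD1 at -0.13 and CTGF at 1.59 were above it, with CTGF at 2 counts at 0 min and 10 at 5 min. Over 5 to 30 min the medians ran the other way and were small, from 0.27 in the shortest group to -0.27 in the longest, where CYR61 and CTGF were at 5.40 and 4.60. The part of gene span in these results was not tested.

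Of 22 other genes listed as YAP and TEAD targets 13 could be tested. At 5 min against 0 min 9 of them rose, where 28.7% of all genes did, and BIRC5 fell, where 26.0% did. The count was again 9 and 1 at 15 min (29.8% and 24.6% of all genes) and at 30 min (32.1% and 23.8%). The median of the list at 5 min was 1.88, where that of all genes was 0.10 and that of the group of the longest genes 1.64. Spans of the genes in this list and in those below were not compared. ASAP1, a regulator of small GTPases, went from 70.4 ± 17.3 at 0 min to 802 ± 16.2 at 5 min (SD, n = 2) and 590 ± 25.1 at 30 min, and SLIT2, a secreted guidance protein, from 88.2 ± 44.6 to 480 ± 17.7 and 425 ± 27.4. From 5 to 15 and from 15 to 30 min, however, 0 of the 13 passed in edgeR or in DESeq2, with 0 higher and 1 lower at an unadjusted p under 0.05 in the first step and 2 higher and 0 lower in the second. Over 5 to 30 min FJX1 rose by 1.84 (SE 0.474, adjusted p = 0.00861) and BIRC5 by 0.54 (SE 0.181, adjusted p = 0.0457), with a list median of -0.22. FJX1 encodes a kinase-related secreted protein and BIRC5 survivin, an inhibitor of apoptosis with a role in cell division. The count of 2 became 1 with RLE size factors, in DESeq2 and with the replicate block, where 5.28%, 4.26% and 5.48% of all genes rose. Both calls were lost without culture 2 at 5 min or without either 30 min culture. Since 1.03% and 2.26% of all genes were higher in the 2 steps and 5.88% from 5 to 30 min, these counts are near the share of all genes.

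Of 24 genes of the Hippo pathway and its nuclear factors 22 were tested, of which 13 rose at 5 min against 0 min, 14 at 15 min and 14 at 30 min, where 28.7%, 29.8% and 32.1% of all genes did. The number that fell was 0 by edgeR, also at an unadjusted p under 0.05, and 0 by DESeq2, but 1 at 5 min without culture 1 at 0 min and 1 at 15 min with 1 library per cDNA. Over all genes 26.0%, 24.6% and 23.8% fell against 0 min at 5, 15 and 30 min. WWC1 is on this list and the previous one, as are AMOTL1 and TEAD4. AMOT, the founding angiomotin, went from 109 ± 8.33 at 0 min to 305 ± 9.89 at 5 min and 378 ± 17.6 at 30 min, and STK3, a Hippo kinase, from 95.6 ± 59.5 to 301 ± 7.09 and 252 ± 35.7. TEAD1 rose by 2.25 at 30 min against 0 min (SE 0.333, adjusted p = 5.55e-07). After 5 min little passed. RASSF1, a scaffold of the pathway, rose from 5 to 30 min and VGLL4, a TEAD cofactor that competes with YAP, fell. Over all genes 5.88% rose and 6.52% fell from 5 to 30 min, and 2.26% rose from 15 to 30 min. The count of 1 that fell from 5 to 30 min was 3 with RLE size factors, and 0 by total counts and with no filter on low counts. Over all genes 10.7%, 3.07% and 2.2% fell in these settings. The count was larger without either 0 min culture. It was smaller without either 5 min culture, culture 2 at 15 min or either 30 min culture. RASSF1 also passed from 15 to 30 min. That count of 1 became 0 with RLE size factors and in DESeq2, and 2 by total counts and with 1 library per cDNA. Over all genes 1.9%, 1.84%, 3.01% and 3.82% rose in these settings. The call of RASSF1 was also lost without any one of the 15 and 30 min cultures.

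Of 6 SRF cofactor genes 5 were tested. MKL1 and MKL2 encode the actin-regulated cofactors. At 5 min against 0 min they rose by 1.93 (SE 0.288, adjusted p = 6.44e-07) and 3.26 (SE 0.269, adjusted p = 5.56e-12), and ELK4 rose as well. Over all genes 28.7% rose at 5 min against 0 min, and 6.52% fell from 5 to 30 min. From 5 to 30 min MKL2 fell by 0.65 (SE 0.193, adjusted p = 0.0228), the one call of the list in that comparison, which total counts, no filter on low counts, or leaving out culture 2 at 5 min or either 30 min culture ended. The count of 1 was 2 with RLE size factors and with 1 library per cDNA, where 10.7% and 7.76% of all genes fell. It was also larger without either 0 min culture.

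Other SRF targets were listed as rapidly induced or as cytoskeletal. Of 12 rapidly induced ones 9 were tested, and all 9 rose from 5 to 30 min, where 5.88% of all genes did (5 of the 9 in DESeq2, which sets some low genes aside), 3 of them already at 15 min and 6 from 15 to 30 min (3 without culture 1 at 30 min). Over all genes 1.03% rose from 5 to 15 min and 2.26% from 15 to 30 min. FOS, a subunit of the AP-1 factor, was at 15.7 ± 10.3 at 0 min and 1.75 ± 2.47 at 5 min. It reached 163 ± 20.9 at 15 min and 599 ± 83.7 at 30 min. EGR1, a zinc finger factor, went from 17.4 ± 14.4 and 1.28 ± 0.163 at these first times to 95.3 ± 9.25 and 293 ± 90.1. Of 30 cytoskeletal targets 26 were tested, of which 2 rose and 9 fell at 5 min against 0 min (10 and 4 by total counts, and 4 higher without culture 2 at 0 min). Over all genes 28.7% rose and 26.0% fell, or 42.6% and 13.9% by total counts. From 5 to 30 min CNN2, TPM4 and FHL2 rose, with a list median of 0.10, and 0 fell (4 at an unadjusted p under 0.05 by edgeR, 0 by DESeq2, 2 with RLE size factors); the count of 3 was 1 in DESeq2, and 1 to 5 with a culture left out. Over all genes 5.88% rose and 6.52% fell from 5 to 30 min. With RLE size factors 10.7% of all genes fell, and in DESeq2 4.26% rose. TAGLN2, a calponin relative, was at 565 ± 48.7 at 5 min and 548 ± 6.26 at 30 min after 2269 ± 156 at 0 min. CFL1, the actin-severing cofilin, was at 200 ± 61.6 and 219 ± 65.7 after 632 ± 121. ITGA5, an integrin subunit, rose by 2.73 from 0 to 30 min (SE 0.743, adjusted p = 0.00216).

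Of 32 other actins and actin assembly genes 28 were tested (ACTA2 and CFL1 are on the cytoskeletal list too), of which 15 fell and 4 rose at 5 min against 0 min (9 rose by total counts), where 26.0% and 28.7% of all genes did. At 30 min 16 were below 0 min and 3 above (8 above by total counts, 5 without culture 2 at 0 min and 2 in DESeq2). Over all genes 23.8% were below 0 min and 32.1% above it at 30 min. By total counts 42.6% of all genes were above 0 min at 5 min and 53.6% at 30 min. In the comparison of 30 with 5 min ACTR3, ARPC3 and TMSB10 fell. In edgeR 0 rose (1 at an unadjusted p under 0.05), and 0 in DESeq2. TMSB10, a thymosin that binds actin monomers, went from 3041 ± 402 at 0 min to 952 ± 129 at 5 min and 574 ± 43.3 at 30 min, and ARPC3, a subunit of the Arp2/3 complex, from 1232 ± 15.0 to 364 ± 10.1 and 192 ± 10.02. PFN2, a profilin, fell by 3.36 from 0 to 30 min (SE 0.221, adjusted p = 7.32e-14), while DIAPH3, a formin that extends filaments, rose by 1.92 (SE 0.232, adjusted p = 1.07e-08). The counts of 30 against 5 min are near the shares of all genes, 6.52% lower and 5.88% higher. The count of 3 that fell was 6 with RLE size factors and 5 in DESeq2, where 10.7% and 9.04% of all genes fell. It was smaller without culture 1 at 5 min or culture 2 at 30 min.

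**Figure D5:**
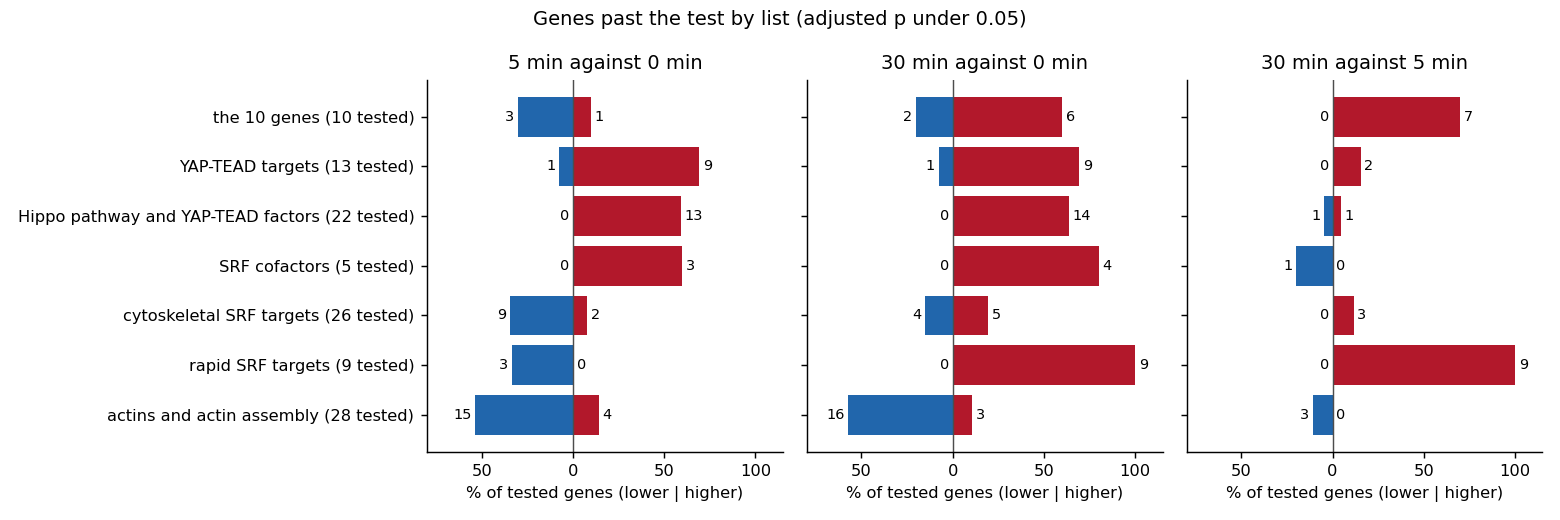
Share of each list's tested genes (x axis, percent, with the count beside each bar) called lower (blue, to the left) or higher (red, to the right) at an adjusted p under 0.05, for 3 comparisons; lists are on the y axis. From 5 to 30 min the bars of the 10 genes (7 of 10) and of the rapidly induced SRF targets (9 of 9) extend to the right, with 0 to 3 genes called higher in each other list.

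Which genes followed the most similar course was measured over the 8 cultures, as the root mean square difference of log2 level after centring each gene on its own mean, with a prior count of 2, among 8620 genes with a mean of at least 10 TMM-scaled CPM. The cultures share the same 4 times, so genes that change between times are alike in part for that reason alone. Nearest to CYR61 were ATF3 (difference 0.603, r = 0.953), IER2 and BTG2, and nearest to CTGF were NR4A2 (0.527, r = 0.975), ATF3 and DUSP1. CYR61 and CTGF differed from each other by 0.867 (r = 0.927), more than from these neighbours. The closest pair among the 10 was ACTB with ACTG1, at 0.0732 (r = 0.997). Outside the 10, ACTB was nearest to COA7 (0.237), H3F3B and NEU1, and ACTG1 to H3F3B (0.213). VCL was nearest to ZFYVE26 (0.096, r = 0.996), TTC19 and SESN3.

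The other genes had fewer counts or smaller changes, and their neighbours are less defined. SRF was nearest to FAM200A (0.321), LINC00115 and CDKN2AIP, AMOTL2 to MTHFD2L (0.401), CTA-445C9.14 and WDR47, and LATS2 to CTDSP2 (0.335), TBL2 and HOXA10-AS. ANKRD1 was nearest to MGAT4A (0.182), NOC2L and RP4-549L20.3, and TPM1 to QTRTD1 (0.112), SRSF1 and SUPT5H. No pair among the 10 other than ACTB and ACTG1 came closer than ANKRD1 with TPM1, at 0.426 (r = 0.452). Their root mean square spreads around their own means were small, 0.477 and 0.243 on the log2 scale. Small spreads alone keep such a difference small.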

How the data were processed

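The 10 genes and the gene lists were chosen with earlier results of these data known. The authors deposited 1 table of raw counts per gene and library; STAR and the build hg19 are named for them, per the submitters' processing notes. Neither the version nor the strand, the treatment of reads that fit several places or the use of molecular identifiers is given in the sources used here. The tagmentation numbers of 4 libraries (culture 2, 0 min) differ between header and labels, without effect on any sum.

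Counts were summed over the 4 libraries of a culture (8 samples). edgeR 4.0.16 in R 4.3.3 (with limma 3.58.1) fitted all 8 together with a mean per time and 4 residual degrees of freedom: filterByExpr with a minimum count of 10, TMM, the quasi-likelihood F test, two-sided, and Benjamini-Hochberg adjustment over 10439 genes. The common dispersion was 0.0235, a coefficient of variation of 15.3%. Since 2 cultures against 2 allow no exact permutation p under 0.333, no such test was made. The fit was tested on simulated data.

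All 10 genes are named, with the 2 most abundant tested genes of each list, each list's largest increase and decrease at 30 min against 0 min (past the test and with a mean of 10 CPM or more), and the 3 nearest genes in course (for ACTG1 the nearest alone, as an item is not reported here); other genes were named after their values were seen. Alternatives were RLE size factors, total counts, no filter, DESeq2 1.42.0, a replicate block, 1 library per cDNA and leaving out each culture. The fit without the 0 min cultures was added after seeing the data. Promoters were read from RefSeq; gene spans are of the principal coding transcript in GENCODE.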

Additional observations from a re-analysis of the deposited data

How the results depend on the processing

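Of 858 values of the 10 genes recomputed under alternatives, 785 kept their direction and their side of the threshold, 30 lost their call, 17 gained one and 26 changed sign; the cause was not tested. With the replicate block the counts of the 10 genes called higher and lower were 1 and 3, 4 and 2, and 6 and 2 against 0 min at 5, 15 and 30 min, and 2, 5 and 7 higher with 0 lower from 5 to 15, 15 to 30 and 5 to 30 min, as without it, and all 60 values kept their call. Over all tested genes, deviations of same-numbered cultures had correlations of -0.0324 to 0.0809. Counting noise in genes with few counts weakens such values, so they do not settle whether the numbers pair cultures. Over all genes the block called 31.5% higher and 23.5% lower at 30 min against 0 min, near the 32.1% and 23.8% without it. Total counts gave 0 of the 10 genes lower at 30 min against 0 min, where 12.9% of all genes were. DESeq2 gave 3 higher from 15 to 30 min, where 1.84% of all genes were. Leaving out 1 culture also moved the counts of these comparisons and of that from 5 to 15 min. The share of all genes called differs between settings, so a change of these counts alone is no result about the 10 genes. By total counts the 5 min difference from 0 min turned to 0.60 for ANKRD1, 0.31 for SRF and 0.15 for TPM1, the 15 min one to 0.47 for TPM1, and the 30 min one to 0.34 for ACTB, 0.29 for ACTG1 and 0.79 for TPM1. With no filter on low counts TPM1 at 30 min was at 0.033, and in DESeq2 AMOTL2 at 5 min was at -0.0010. Values that had not passed also turned sign with a culture left out. At 5 min against 0 min CTGF ranged from -3.83 to 5.57, AMOTL2 from -2.16 to 1.06, ANKRD1 from -0.41 to 0.21, LATS2 from -1.74 to 5.77 and SRF from -1.04 to 1.38. At 15 min LATS2 ranged from -0.61 to 6.02 and SRF from -0.24 to 2.17, and at 30 min TPM1 from -0.15 to 0.038. From 5 to 15 min AMOTL2 ranged from -0.089 to 2.94, LATS2 from -0.82 to 2.25 and VCL from -0.12 to 0.44. CTGF, AMOTL2, LATS2 and SRF had at most 46 counts per culture before 30 min, where 1 count is worth 0.640 to 1.53 TMM-scaled CPM.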
